A study of Mus musculus with 7 samples.

Results

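The neutrophil granule genes described here are the 9 of 50686 genes in the deposited files whose symbol is Ngp, Camp, Ltf, Lcn2, Retnlg, Ly6g, Fcnb, Mpo or Elane, chosen by symbol as known neutrophil granule or marker genes, with no threshold on their values. Their RNA was measured in Bodipy+ microglia, which are brain macrophages that hold lipid droplets stained by the dye Bodipy. The cells were sorted by FACS from the forebrain of wild-type C57BL/6 male mice supplied by Janvier. All mice had the right middle cerebral artery occluded for 45 min and then reopened, and were studied 4 days later. The study's methods give isoflurane anesthesia and buprenorphine as analgesic for this surgery. No microglia-depleting drug is named for these mice. The 4 young mice (14C, 18C, 23C and 29C) were 3 to 4 months old and the 3 old mice (2posI, 3posI and 4posI) were 21 to 22 months old. No sham-operated mice were analysed here, so the comparison is of age within ischemia. Each library is taken as 1 mouse, as the study counts them. The sort used antibodies to CD11b and CD45. The study gates microglia of other mice as CD45 low, whereas neutrophils carry high CD45, and no antibody to Ly6G is named for the sort. Perfusion of the vessels is described for other mice of the study but not for these.

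Neutrophils store antimicrobial proteins in granules that are filled in sequence while the cell matures in the bone marrow. Primary (azurophil) granules are loaded first, at the promyelocyte stage, with the peroxidase Mpo and the serine protease Elane. Secondary (specific) granules follow at the myelocyte stage with the cystatin-like protein Ngp, the cathelicidin precursor Camp, the iron-binding protein Ltf (lactoferrin) and the siderophore-binding Lcn2. Transcription of these genes largely ceases as the cell leaves the marrow. Ly6g encodes the surface protein used to identify mouse neutrophils, Retnlg a secreted resistin-like protein of circulating neutrophils, and Fcnb a ficolin that binds bacterial sugars and is made by immature myeloid cells. Lcn2 differs from the others in that astrocytes and endothelial cells also make it in inflamed brain.

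Factors of the C/EBP family, among them Cebpe, drive many secondary granule genes, and their binding site is often written with the letters TTGCNNAA. These letters, on either strand, were found within the 250 bases before the RefSeq start in 6 of the 9 members (Ngp, Ltf, Lcn2, Retnlg, Ly6g and Fcnb) and in 9.56% of all 32851 promoters of the same RefSeq table (GRCm38.p6). The letters GAGGAA, bound by PU.1, were found in 5 members (Ltf, Lcn2, Ly6g, Mpo and Elane) and in 23.3% of all promoters. The 30-base windows shown hold the C/EBP letters, in capitals, of the members with the most RNA in these libraries, and are written 5′ to 3′ on the strand of the gene, with the distance from the first capital to the RefSeq start. A match of letters is a description and not a site of binding.
Ngp, chr9:110419659-110419688, + strand, 138 bases before the start, outside the gene: gtcctggtttaTTGCCCAAacctccttgcc
Ngp, chr9:110419786-110419815, + strand, 11 bases before the start, exon in GENCODE: accggcagttcTTGGGCAAggcagtctcaa
Ltf, chr9:111019206-111019235, + strand, 75 bases before the start, outside the gene: aggcaggcctaTTGGGCAAtagggtggggc
Retnlg, chr16:48872358-48872387, + strand, 246 bases before the start, outside the gene: agctTTCTGCAAggcattccaggcacctcc
Lcn2, chr2:32387937-32387966, − strand, 216 bases before the start, exon in GENCODE: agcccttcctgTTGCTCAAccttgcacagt

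Camp, Ngp and Ltf lie near each other on chromosome 9 of GRCm38. Camp (9:109847379-109849617, − strand) and Ngp (9:110419747-110423012, + strand) are 570129 bases apart, and Ngp and Ltf (9:111019271-111042767, + strand) 596258 bases apart. Another 28 protein-coding genes lie between Camp and Ltf. The other members are spread over 5 chromosomes, with Lcn2 at 2:32384633-32388252 and Fcnb at 2:28076378-28084885, Retnlg at 16:48872621-48874496, Ly6g at 15:75155240-75159126, Mpo at 11:87793581-87804413 and Elane at 10:79886247-79888215.

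Expected counts per library summed to 36574083 to 53002386. Microglia markers were abundant in all libraries, with mean TPM (a level scaled for gene length and library size) of 2884 in the young and 1564 in the old mice for Fcrls and of 1917 and 1818 for Trem2. Old mouse 3posI stood apart: it had the lowest counts of both (60673 for Fcrls and 41449 for Trem2, against at least 103695 and 55287 in the other mice), and its sum for 8 monocyte markers was 1343 TPM, against 83.8 to 250.7 TPM in the other 6 mice. Where 3posI decides the value of a gene or list, the value without this mouse is given as well. In bulk samples, fewer cells of a type and less RNA per cell cannot be told apart, and this holds for all values of the granule genes.

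Between ages, none of the granule genes differed beyond the spread between mice. Levels of Ngp and Ltf ranged from 0 or nearly 0 to more than 10 CPM (counts scaled to library size with TMM factors) among the young mice. Among the old mice they ranged from 1.79 to 13.1 CPM for Ngp and from 2.43 to 6.91 CPM for Ltf. Of the 9 members, 7 reached the filter, which asks that 1 or more libraries exceed an expected count of 10. By the quasi-likelihood test of edgeR, 0 of these 7 had a Benjamini-Hochberg adjusted p under 0.05, while 0.803% of the 17559 genes tested did. At an unadjusted p under 0.05 the count was 0 of 7 members against 18.9% of all genes. limma-voom also called 0 of the 7, beside 0.814% of all genes, although Retnlg and Ly6g had an unadjusted p under 0.05 in it. edgeR without young mouse 29C called 0 of the 7, beside 0.0115% of all genes, and Lcn2, Retnlg and Ly6g had an unadjusted p under 0.05. The share of all genes at that unadjusted threshold was not counted for these fits. DESeq2 gave an adjusted p for 4 of the 7 members (not for Retnlg, Ly6g and Fcnb) and called 0 of these 4, beside 9.51% of the genes with an adjusted p. The age groups overlapped for all 7 members, while they did not overlap for 17.7% of all genes.

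**Figure D1:**
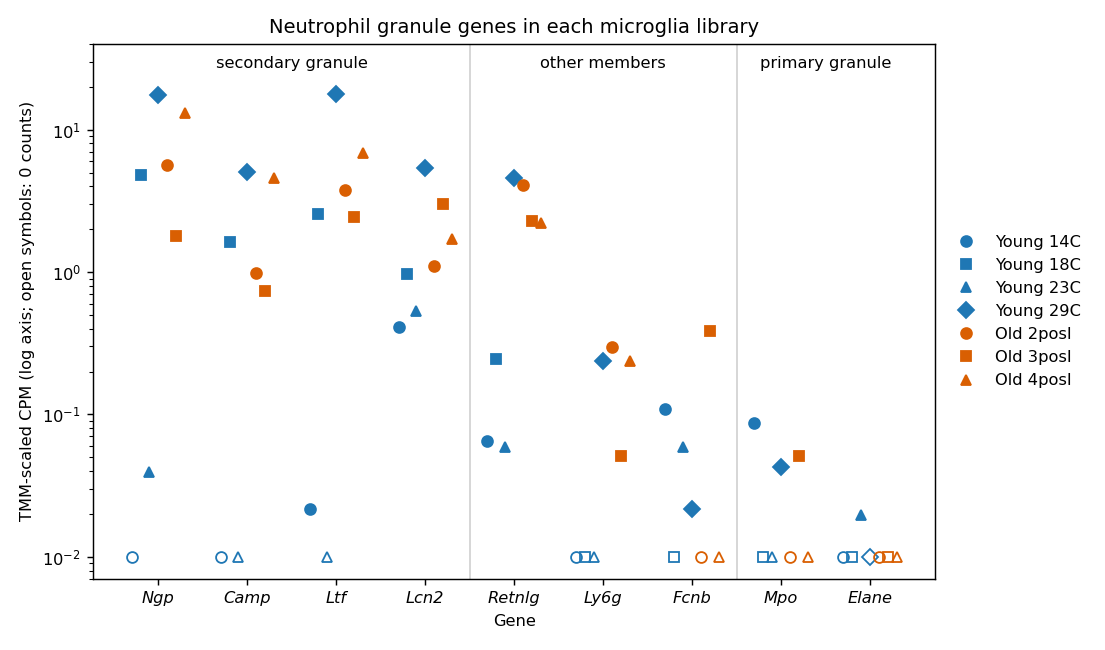
TMM-scaled CPM (log axis) of the 9 granule genes in each library, blue for the 4 young and orange for the 3 old mice, with open symbols at the foot for 0 counts. Young mice 14C and 23C sit at the bottom for Ngp, Camp, Ltf and Retnlg, young mouse 29C at the top for Ngp, Camp, Ltf, Lcn2 and Retnlg, and Mpo and Elane stay under 0.1 CPM in all mice.

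Ngp, the member with the highest mean level, had counts of 0 in young mouse 14C, 214 in 18C, 2 in 23C and 809 in 29C, and of 190, 70 and 608 in old mice 2posI, 3posI and 4posI. In CPM these were 0, 4.79, 0.039 and 17.4 in the young and 5.66, 1.79 and 13.1 in the old. The young mice thus spanned the whole range of the old, with 2 mice at or near 0 and 1 above all old mice. The mean was 5.56 ± 8.21 CPM (SD, n = 4) in the young and 6.86 ± 5.76 CPM (SD, n = 3) in the old, and the log2 fold change of old against young, given here and from here on ± SE, was 0.31 ± 1.55 (adjusted p = 0.934 in edgeR). An exact permutation test of log2 CPM, two-sided, gave p = 0.371, where 0.0286 is the smallest p that 4 against 3 mice allow.

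Camp, which encodes the precursor of the antimicrobial peptide CRAMP, was likewise highest in 29C and 4posI, at a lower level. Its counts were 0, 73, 0 and 234 in the young mice 14C, 18C, 23C and 29C and 33, 29 and 213 in the old mice 2posI, 3posI and 4posI. As for Ngp, 14C and 23C held none or almost none. The mice between differed in order, since 18C (1.63 CPM) was above 2posI (0.983 CPM) for Camp but under it for Ngp. The log2 fold change was 0.35 ± 1.53 (adjusted p = 0.924 in edgeR). Without old mouse 4posI the value turned to −0.95 for Camp and −0.58 for Ngp.

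Ltf had counts of 1, 115, 0 and 827 in the young mice 14C, 18C, 23C and 29C. In the old mice 2posI, 3posI and 4posI its counts were 127, 95 and 320. The same 2 young mice were at the bottom and 29C, at 17.8 CPM, was above the highest old mouse, 4posI at 6.91 CPM. Ltf was the only one of the 7 tested members with a mean that was lower in old mice (5.10 ± 8.55 CPM in the young, SD, n = 4, and 4.37 ± 2.30 in the old, SD, n = 3), with a log2 fold change of −0.22 ± 1.58 (adjusted p = 0.956 in edgeR). The sign rested on single mice, since the log2 fold change was 2.34 without 29C and 0.074 without 3posI. It also turned in limma-voom (3.67), which averages logarithms and so weights the young mice near 0 more than a ratio of means does.

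Lcn2 was the 1 secondary granule gene detected in all 7 mice. Its counts were 19, 43, 27 and 251 in the young mice 14C, 18C, 23C and 29C and 37, 118 and 79 in the old mice 2posI, 3posI and 4posI. In 14C and 23C, where Ngp, Camp and Ltf together had 1 and 2 counts, Lcn2 was still at 0.411 and 0.530 CPM. It was also the secondary granule gene for which 3posI, at 3.02 CPM, was the highest old mouse. The log2 fold change was 0.09 ± 0.87 (adjusted p = 0.967 in edgeR), and 1.61 without 29C (adjusted p = 0.228). Astrocyte markers summed to 54.7 to 84.0 TPM in the young and 35.7 to 90.5 TPM in the old mice, and endothelial markers to 49.1 to 110.6 TPM and 33.7 to 44.8 TPM. Their part in the Lcn2 level was not tested.

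Summed over Ngp, Camp, Ltf and Lcn2, secondary granule genes had 0.820, 13.3, 0.910 and 56.3 TPM in the young mice 14C, 18C, 23C and 29C. The sums were 14.0, 11.3 and 35.7 TPM in the old mice 2posI, 3posI and 4posI. The old mice lay within the range of the young, between 18C and 29C except for 3posI, which was just under 18C. The mean was 17.8 ± 26.3 TPM (SD, n = 4) in the young and 20.3 ± 13.4 TPM (SD, n = 3) in the old, a ratio of 1.14. Single mice decided this ratio and its direction: it was 4.04 without 29C, but 0.708 without 4posI, 0.864 without 14C and 0.865 without 23C. Leaving out Lcn2 gave 1.16.

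**Figure D2:**
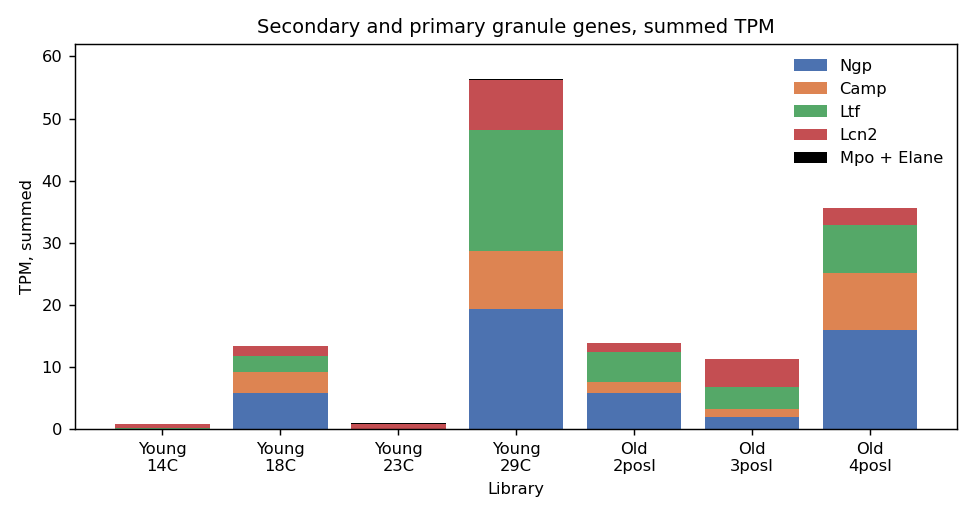
Summed TPM of the 4 secondary granule genes and of Mpo plus Elane in each library, stacked by gene. Young mouse 29C reaches 56.3 TPM and old mouse 4posI 35.7 TPM, while 14C and 23C hold under 1 TPM, nearly all of it Lcn2, and the primary granule genes are too low to be seen as a layer.

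The make-up of the secondary granule RNA was also compared among the 5 mice with more than 100 counts of Ngp, Camp and Ltf together. Per length, Ngp exceeded Camp in all 5, with TPM ratios of 1.77 in 18C, 2.09 in 29C, 3.48 in 2posI, 1.46 in 3posI and 1.72 in 4posI. Of the counts of these 3 genes, Ltf made up 28.6% in 18C and 28.0% in 4posI, and 44.2% in 29C and 49.0% in 3posI. The proportions therefore differed between mice of 1 age as much as between ages. Lcn2 added 7.88% to 14.5% of the summed secondary TPM in 4 of these mice and 39.3% in 3posI. RSEM spreads Ltf reads over many transcripts (12 in the annotation used here, of 233 to 2743 bases), and the mean length it used for Ltf ran from 233 to 1509 bases among libraries, which moves the TPM but not the counts of Ltf.

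The primary granule genes Mpo and Elane were close to absent in both ages, while other genes of this class, given further on, were detected. Mpo had 4 counts in 14C, 2 in 29C and 2 in 3posI and 0 in the other mice, and Elane had 1 count in 23C and 0 elsewhere. Over all 7 mice this came to 9 counts, against 4534 counts of the 4 secondary granule genes. Neither gene passed the count filter. Both were at or under 0.0866 CPM in all mice, close to the limit that 0 counts allows (3 counts of a library, or 0.0588 to 0.0894 CPM), so no difference between ages was detectable at this depth. An overlapping gene, Gm11505, shares the locus of Mpo, and the libraries are not stranded.

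Counts of Mpo and Elane, the only genes meant by primary here, were 0 to 4 in every mouse. Their share among primary and secondary counts of the members thus mainly followed the secondary counts. In 29C there were 2 primary and 2121 secondary counts, a share of 0.094% (exact 95% binomial interval 0.011% to 0.340%). In 4posI the share was 0 of 1220 counts (upper bound 0.302%), in 18C 0 of 445 (0.826%) and in 2posI 0 of 387 (0.949%). In 3posI it was 0.637% (0.077% to 2.28%). The 2 mice with little secondary granule RNA had higher shares with wide intervals, at 16.7% (4.74% to 37.4%, 4 primary and 20 secondary counts) in 14C and 3.33% (0.084% to 17.2%, 1 and 29 counts) in 23C. The sum of Mpo and Elane had a mean of 0.043 ± 0.038 TPM (SD, n = 4) in the young and 0.010 ± 0.017 TPM (SD, n = 3) in the old. The intervals cover counting error only, since no molecular identifiers are named for these libraries.

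Retnlg was low in 3 of the 4 young mice and well detected in all old mice and in 29C. Its counts were 3, 11, 3 and 214 in the young mice 14C, 18C, 23C and 29C, and 137, 90 and 102 in the old mice 2posI, 3posI and 4posI. In CPM, 3 young mice were at 0.0588 to 0.246, all old mice at 2.20 to 4.08, and 29C at 4.60, above all the old mice. The mean was 1.24 ± 2.24 CPM (SD, n = 4) in the young and 2.86 ± 1.06 CPM (SD, n = 3) in the old. The log2 fold change was 1.20 ± 1.28 (adjusted p = 0.647 in edgeR) and an exact permutation test gave p = 0.143. Mouse 29C again decided the size: without it, the log2 fold change was 4.52 ± 0.67 (adjusted p = 0.0661 in edgeR), in a fit that called 2 genes, or 0.0115% of those tested. Leaving out any other mouse gave 0.80 to 1.36, and limma-voom on all mice gave 3.30 (adjusted p = 0.159).

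Retnlg also differed from Ngp and Ltf in 18C. That mouse had 4.79 CPM of Ngp but 0.246 CPM of Retnlg, whereas 2posI, with 5.66 CPM of Ngp, had 4.08 CPM of Retnlg. The members therefore did not keep 1 ratio among the mice that had them.

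Ly6g was detected in 29C (11 counts) and in the old mice 2posI (10.4), 3posI (2) and 4posI (11), and was at 0 in the young mice 14C, 18C and 23C. The old mice had 0.298, 0.0511 and 0.238 CPM and 29C had 0.237, so the groups overlapped and 3posI was within the limit that 0 counts allows. The log2 fold change was 1.68 ± 1.50 (adjusted p = 0.574 in edgeR). Without 29C the young mice held 0 counts, and the fitted value of 6.11 (adjusted p = 0.198) then depends on the prior count and is no measure of size. The fractional count in 2posI shows that RSEM shared reads of Ly6g with another gene there, so this value is uncertain.

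Fcnb had 5, 0, 3 and 1 counts in the young mice 14C, 18C, 23C and 29C, and 0, 15 and 0 in the old mice 2posI, 3posI and 4posI. It passed the filter by the single value of 3posI, the mouse with the most monocyte RNA, and it was at 0 in 2posI and 4posI, where Ngp and Ltf were well detected. Its log2 fold change of 1.38 ± 1.58 (adjusted p = 0.673 in edgeR) therefore comes from 1 mouse, and without 3posI the gene missed the filter.

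**Figure D3:**
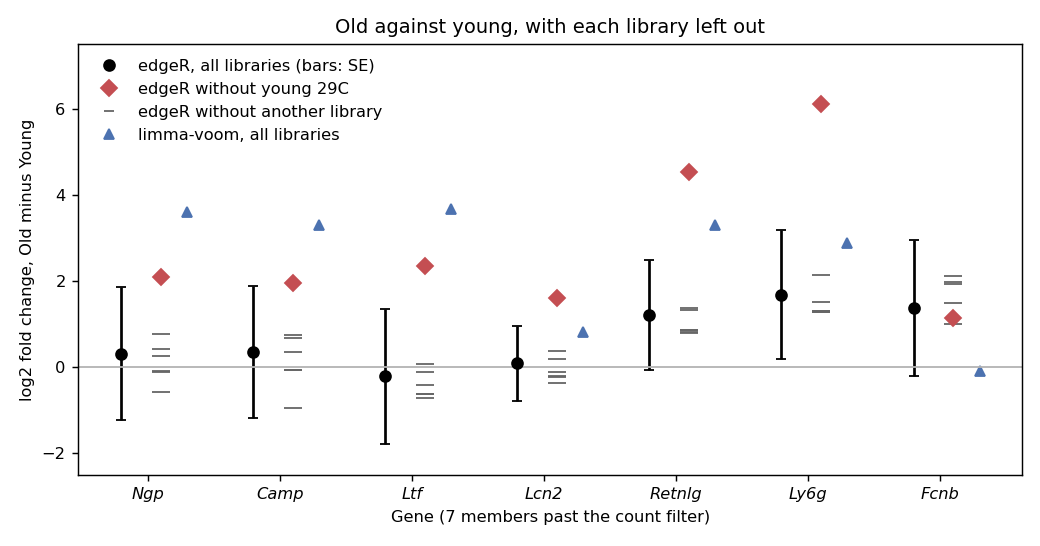
Log2 fold change, old minus young, of the 7 members that passed the count filter: edgeR with all libraries (black, bars are SE), with 1 library left out (grey dashes, or red diamonds for young mouse 29C) and limma-voom (blue). The red diamond lies above the black point for all members but Fcnb, by most for Retnlg (1.20 to 4.52) and Ly6g.

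In order of mean TPM over the 7 mice, Ngp (7.02) came before Ltf (5.45), Retnlg (4.50), Camp (3.55) and Lcn2 (2.87), then Ly6g (0.289), Fcnb (0.106), Mpo (0.024) and Elane (0.0043). In the old mice, the ranges of neighbours among the first 5 overlapped: Ngp ran from 1.94 to 15.9 TPM, Retnlg from 5.22 to 8.94, Ltf from 3.60 to 7.67, Camp from 1.33 to 9.25 and Lcn2 from 1.58 to 4.44. Neighbours in this upper order did not differ beyond their spread, whereas Retnlg lay above Lcn2 without overlap in the old mice. Ly6g, at 0.07 to 0.93 TPM, lay under all of them.

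Other granule genes were read from lists of known components. Of 4 further primary granule genes, the proteases Prtn3 and Ctsg passed the filter, and 0 were called by edgeR (0 also at an unadjusted p under 0.05). Ctsg had 5, 2, 10 and 4 counts in the young mice 14C, 18C, 23C and 29C. In the old mice 2posI, 3posI and 4posI it had 10, 20 and 1 (log2 fold change 1.31 ± 0.97, adjusted p = 0.496). Without 3posI, Ctsg missed the filter. Prtn3 had 23, 3, 30 and 10 counts in the young mice 14C, 18C, 23C and 29C and 13, 165 and 13 in the old mice 2posI, 3posI and 4posI (log2 fold change 2.24 ± 1.02, adjusted p = 0.279, and −0.044 without 3posI). The order of mice for Prtn3 differed from that for Ngp: 23C and 14C were above 18C and 29C, and 3posI was highest. Prss57 had 1 count in 29C and 5 in 3posI, and Ms4a3, a gene of granulocyte-monocyte progenitors named after its values were seen, 1 count in 4posI.

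Of 13 further secondary and tertiary granule genes, 11 were tested and 0 were called by edgeR, with 6 higher in old mice at an unadjusted p under 0.05, beside 10.1% of all genes, and a median log2 fold change of 1.56, beside −0.014. Without 3posI, 1 of the 11 was higher at that threshold, beside 8.13% of all genes, and the median was 0.11, beside −0.022. The library with the highest CPM was 3posI for 10 of the 13, whereas it was the highest for 0 of Ngp, Camp, Ltf and Lcn2. Chil3, a chitinase-like protein that monocytes and macrophages also make, had 347 to 2326 counts in the young mice and 872, 55806 and 3189 in 2posI, 3posI and 4posI (log2 fold change 4.58 ± 1.31, adjusted p = 0.131, and 1.17 ± 0.69 without 3posI). Cyba, a subunit of the phagocyte NADPH oxidase, and the lysozyme Lyz2, both also made by microglia, had log2 fold changes of 0.54 ± 0.18 (adjusted p = 0.163) and 1.07 ± 0.57 (adjusted p = 0.344), and of 0.42 and 0.11 without 3posI. The neutrophil collagenase Mmp8 and the surface protein Cd177, named after their values were seen, had 2343 and 2066 counts in 3posI against at most 787 and 204 in any other mouse, and without 3posI their log2 fold changes were −0.12 and 1.01. The other 3 of the 13 were highest in 29C. Of these, Wfdc21 and Olfm4 were also named after their values were seen. Wfdc21 had 80 counts in 29C and 0 to 17 in the other mice, with 17 in 3posI. Olfm4 had 241 counts in 29C and its lowest count, 25, in 3posI. The monocyte list moved with the genes that were highest in 3posI, since all 8 of its own genes were highest there. Of these, 5 were higher in old mice at an unadjusted p under 0.05, beside 10.1% of all genes. The list's median log2 fold change was 3.13. Without 3posI, 4 were higher, beside 8.13% of all genes, and the median was 0.88. In that fit Ly6c2 was called (log2 fold change 3.01 ± 0.43, adjusted p = 0.0295 in edgeR), beside 159 of 17375 genes, or 0.915%. The list's part in the result was not tested.

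Among 19 further mature neutrophil transcripts, 16 were tested and 0 were called by edgeR, with 9 higher in old mice at an unadjusted p under 0.05, beside 10.1% of all genes, and a median log2 fold change of 2.04. For 15 of the 19 the highest library was 3posI, and without this mouse 1 of the 14 genes tested was higher at that threshold, beside 8.13% of all genes, with a median of 0.73. The monocyte list moved with them, as given above, and its part was not tested. S100a8, a subunit of the calprotectin that fills the neutrophil cytosol, had 368, 385, 56 and 3482 counts in the young mice 14C, 18C, 23C and 29C. In the old mice 2posI, 3posI and 4posI it had 633, 2582 and 1456 counts (log2 fold change 0.74 ± 1.09, adjusted p = 0.75 in edgeR, and 0.12 without 3posI). It shared with the granule members the high value of 29C, but 3posI came next. S100a8 was thus 1.80 to 4.30 counts per count of Ngp in 18C, 29C, 2posI and 4posI, and 36.9 in 3posI. The ratio was also high in young mouse 23C (28.0, from 2 counts of Ngp), and 14C, with 0 counts of Ngp, has no ratio. Csf3r, the receptor of G-CSF, had 6674 to 14418 counts in all mice, including those without Ngp, and had its lowest count in 3posI (log2 fold change −0.34, adjusted p = 0.454). Clec4d, a C-type lectin of myeloid cells, had 8036 counts in 3posI and at most 721 in any other mouse (log2 fold change 3.33, adjusted p = 0.132, and 1.20 without 3posI).

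**Figure D4:**
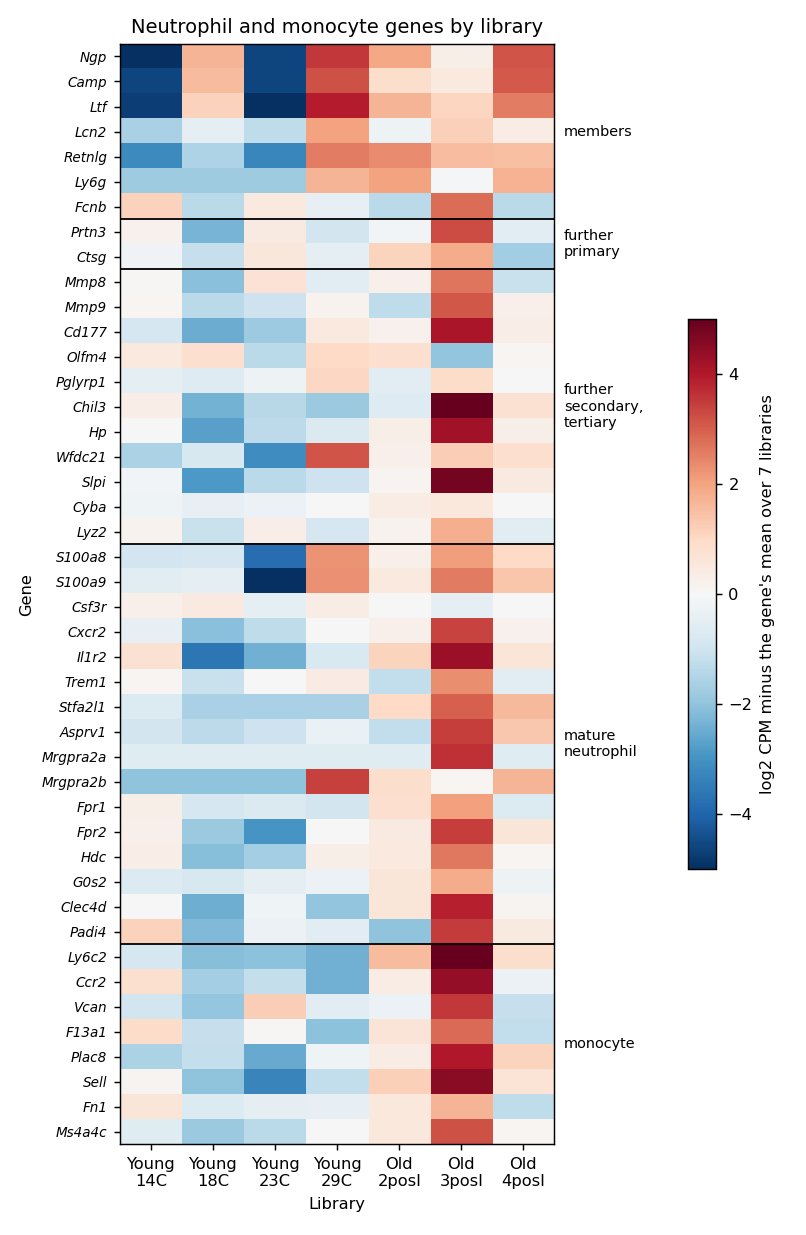
Log2 CPM of each gene minus its mean over the 7 libraries (columns), for the tested members and for genes of 4 lists (rows), from blue (lower) to red (higher). The secondary granule genes Ngp, Camp and Ltf are blue in young 14C and 23C and reddest in 29C and 4posI, whereas most genes of the other lists are reddest in old 3posI.

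Of 8 transcription factors that act on granule genes, 7 were tested and 0 were called by edgeR (0 at an unadjusted p under 0.05). Spi1 (which encodes PU.1), Irf8 and Cebpb, all of which microglia also use, had log2 fold changes of 0.09 (SE 0.12, adjusted p = 0.731), −0.13 (SE 0.14, adjusted p = 0.651) and 0.09 (SE 0.42, adjusted p = 0.926). The value of Cebpb rested on 3posI, which had its highest count (27317). Without 3posI it was −0.60 (SE 0.29, adjusted p = 0.328 in edgeR). Gfi1, which acts in the granulocyte precursor, was at 0 counts in all 7 mice. Cebpe, named after its values were seen, had 2, 5, 4 and 11 counts in the young mice 14C, 18C, 23C and 29C and 9, 14 and 20 in the old mice 2posI, 3posI and 4posI. By CPM its groups did not overlap, as for 17.7% of all genes, with a log2 fold change of 1.57 ± 0.71 (adjusted p = 0.274 in edgeR).

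Signals that draw neutrophils and receptors that bind granule proteins also had 0 genes called by edgeR. Of the 8 tested of 11 attracting signals, 1 was higher in old mice at an unadjusted p under 0.05, beside 10.1% of all genes, and 0 were lower. The 1 gene was Alox5ap, the partner protein of 5-lipoxygenase in leukotriene synthesis. Its mean was 457.7 TPM in the young and 682.3 TPM in the old mice (log2 fold change 0.64 ± 0.21, adjusted p = 0.164). The chemokine Cxcl2 had 145.4 TPM in the young and 70.6 in the old (log2 fold change −0.94 ± 0.52, adjusted p = 0.360), and Lta4h 41.4 and 44.2 TPM. Csf2 and Il17a were at 0 counts in all mice. Without 3posI the median log2 fold change of these signals went from 0.13 to −1.30, and Cxcl1, Cxcl2, Csf3 and Ptgs2 were lower in old mice at an unadjusted p under 0.05, beside 9.51% of all genes lower at that threshold. Csf3 was near the floor, with 3, 1, 14 and 8 counts in the young mice and 0 in 2posI and 4posI. Alox5ap was still higher in old mice without 3posI (log2 fold change 0.34 ± 0.15, adjusted p = 0.273 in edgeR), at an unadjusted p under 0.05 that 8.13% of all genes reached in that direction. Of the 8 receptor entries tested, 3 were higher in old mice at an unadjusted p under 0.05, beside 10.1% of all genes. These were Lrp1 and the formyl peptide receptors Fpr1 (log2 fold change 1.60 ± 0.61, adjusted p = 0.210) and Fpr2 (2.97 ± 1.04, adjusted p = 0.179), and 0 of the 8 were without 3posI. The most abundant were Itgb2 and Itgam, which form the complement receptor CR3, with log2 fold changes of 0.11 (SE 0.15, adjusted p = 0.743) and −0.59 (SE 0.28, adjusted p = 0.298), and the lactoferrin receptor Lrp1 (0.44, SE 0.18, adjusted p = 0.228). A second, weaker entry of Itgam is among the entries tested, with 0.22 (SE 0.30, adjusted p = 0.733 in edgeR). Lrp2 missed the count filter.

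Of the cell type lists, the most abundant markers included Fcrls and Trem2 for microglia and were Ly6c2, Fn1 and Ms4a4c for monocytes, Gfap, Slc1a3 and Aldoc for astrocytes, Cldn5, Pecam1 and Ly6c1 for endothelium, Cd3e, Cd2 and Nkg7 for lymphocytes, and Hbb-bs, Hba-a1 and Hba-a2 for erythroid cells. Erythroid genes had another order of mice than the granule genes. Haemoglobin and other erythroid genes summed to 487.4 to 903.2 TPM in the young mice and 495.5 to 1819 TPM in the old. The sum was highest in 2posI, and 29C and 4posI, which had the most Ngp, were at 810.2 and 495.5 TPM. Young mouse 23C had 903.2 TPM of erythroid RNA and 2 counts of Ngp. Lymphocyte markers summed to 0.59 to 0.87 TPM in the young and to 0.62, 4.10 and 4.27 TPM in 2posI, 3posI and 4posI. The part of these cells in the result was not tested.

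The genes whose log2 CPM was most like the mean log2 CPM of the 7 tested members over the 7 libraries were Gm25265 (Pearson r = 0.996), Gm26590 (0.957), Lgals3bp (0.953), 1110059E24Rik (0.950) and Trim5 (0.945). Gm25265 (0.087 to 0.602 CPM) and Gm26590 (0.098 to 0.344 CPM) had few counts, their lowest values being close to the limit that 0 counts allows. Spearman's rho ran from 0.821 to 0.964. These are descriptions over 7 libraries, picked as the highest among all genes tested and given without a p. Young mice 14C and 23C lie far from the other mice in the members' mean, and without them r was 0.978, 0.800, 0.855, 0.587 and 0.699. Lgals3bp, which encodes a secreted galectin-binding protein, ran from 806.3 CPM in 23C and 925.6 CPM in 14C to 1684 CPM in 29C and 1716 CPM in 4posI.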

How the data were processed

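The 7 libraries of Bodipy+ microglia, 4 from young and 3 from old males, were grouped by the age label of each sample. Sex, day after ischemia and sorting come from the labels and the study's methods. The authors made Smart-seq2 libraries (non-stranded per the labels), mapped reads to GRCm38 with STAR and quantified GENCODE m15 genes with RSEM (versions not given in the sources used here). RSEM files deposited by the authors hold expected counts, which are not normalized, with TPM and FPKM values and an effective length per gene. The deposited TPM values served for levels and sums, and the deposited FPKM values and effective lengths for alternatives only.

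Expected counts were first rounded. Following the study's methods, a gene was tested if 1 or more libraries exceeded an expected count of 10 and if it lay outside X, Y and the mitochondrial genome, the latter step removing 614 of 18173 genes. The quasi-likelihood test of edgeR 4.0.16 (R 4.3.3) was run with TMM factors and age as the only term. The labels give no batch. Calls have a Benjamini-Hochberg adjusted p under 0.05 over all 17559 genes. The SE of an edgeR log2 fold change was derived from the test, as its absolute value divided by the square root of the F statistic. Log2 CPM has a prior count of 1. Exact permutation tests covered all 35 splits of 4 and 3. Alternatives used limma 3.58.1 (voom, as in the study, and log2 of TPM plus 0.1 or 1), DESeq2 1.42.0, other size factors and filters, all chromosomes, and each library left out. Values of the gene lists without 3posI come from that last fit and were chosen after seeing the data.

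Coordinates are from GENCODE vM21, which is not the authors' release and lacks 42 of the tested genes. Sequences are from RefSeq. All members were named, and, of each list, called genes, the 3 of highest mean TPM, markers at 0 and the 5 genes most like the members. Members and lists were chosen with earlier results of these data known. Females, sham-operated mice and mice with renewed microglia were not analysed here. Values of 1 microglia marker are not reported here. The p-values set the difference between ages against the spread between these mice.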

Additional observations from a re-analysis of the deposited data

Results flagged for a closer look

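In the young mice, 1 value stood far from the others for 5 of the 11 groups of 4 mice checked. Chance gives about 1 in 20 where values are normally distributed, which counts near 0 are not. The gap between the extreme mouse and its nearest neighbour was compared with the whole range of the group, and exceeded Dixon's 95% critical value for 4 samples. For Ltf the gap was 0.855 of the range, for Lcn2 0.890 and for Retnlg 0.959. For Ly6g it was 1.0, which is fixed where the other 3 mice are at 0 and says nothing more. In these 4 genes the mouse was 29C, as the highest. For Elane the gap was also 1.0 for the same reason, from the single count in 23C. The genes are not independent of each other, since they were measured in the same 4 mice. The groups of 3 old mice were not checked in this way.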

How the results depend on the processing

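The count of members called by age was 0 in all alternatives run, but DESeq2 gave no adjusted p for Retnlg, Ly6g and Fcnb, so that its 0 covers 4 members. Over all genes, edgeR called 141 genes (70.9% higher in old mice), DESeq2 1403 (53.3%), edgeR with effective-length offsets 213 and without a count filter 288 (54.5%), and limma called 71 (47.9%) on log2(TPM + 0.1), where the median of all genes moved by −0.11, and 64 (50.0%) on log2(TPM + 1). Leaving out 1 mouse gave 1 to 159 calls. The ratio of summed secondary granule TPM ran from 0.708 to 4.04 with 1 mouse left out, the highest without young mouse 29C. With 1 mouse left out, log2 fold changes ran from −0.58 to 2.10 for Ngp, from −0.95 to 1.96 for Camp, from −0.71 to 2.34 for Ltf and from −0.37 to 1.61 for Lcn2, so that each changed sign. With all mice, the sign of Ltf turned in limma-voom (3.67) and in limma on log2(TPM + 0.1) (2.27) and log2(TPM + 1) (1.02), and that of Fcnb in limma-voom (−0.095). These were 4 of 69 fold changes under alternatives with all mice, and 12 of 48 turned when 1 mouse was left out. The limma fits average logarithms, and no further cause was tested. No paired analysis was possible because the labels give each mouse its own code and no number shared between ages. Depth limits Mpo, Elane, Fcnb and Ly6g, which have 34 counts or fewer over all mice.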
